A study of Mus musculus with 4 samples.

Results

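The transcriptomes compared here are those of Ret-EGFP+ and non-EGFP cells sorted from the crypts of the mouse small intestine. All 10 libraries of sorted cells entered the comparison, 5 per group, out of 22 libraries in the series, and each was assigned by the GFP entry of the deposited sample sheet. The other 12 libraries are of organoids and were not used. Cells came from 3 adult male Ret EGFP/+ mice on a C57BL/6J background, a knock-in line in which EGFP is made from the Ret locus, so both groups carry the same reporter allele (the labels give the genotype as WT). Crypts were released with EDTA and dissociated, and 1000 cells were collected per library, Ret-EGFP+ above and non-EGFP below a gate set on an age-matched littermate without the reporter. Neither group received a test treatment, and the cells of both were handled after dissociation in medium with the ROCK inhibitor Y-27632 and the antioxidant N-acetylcysteine. The non-EGFP group is the rest of the crypt, which holds stem, dividing, Paneth, goblet, tuft and absorptive cells. Transcripts of endocrine cells (Chga) and of lymphocytes (Gzma) were also counted in all 5 of its libraries. A gene called higher in Ret-EGFP+ cells is thus higher than in that mixture.

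RET is the signalling receptor for GDNF, a growth factor of the enteric nervous system. In crypts, enteroendocrine cells are rare epithelial cells that store peptide hormones and amines in dense-core granules and release them when nutrients or other signals raise their intracellular calcium. Like pancreatic islet cells, they use NEUROD1, INSM1 and RFX6 to set up their secretory programme. Enterochromaffin cells, one of their subtypes, make serotonin.

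Transcripts were primed with oligo-dT and read near their 3′ ends. Between 1185426 and 3222485 counts were obtained from a Ret-EGFP+ library, and between 1113006 and 4717549 from a non-EGFP library. Levels are given as CPM, counts per 1000000 counts of a library whose total was corrected by a TMM factor for the share that a few genes take. Means of 5 libraries are given ± SD, Ret-EGFP+ first, and log2 fold changes with their SE are of Ret-EGFP+ over non-EGFP. Plate and sequencing pool held both groups in equal numbers: 1 library of each group was on plate 2, 3 on plate 3 and 1 on plate 4, and the plate 4 pair (replicate 5 of each group) alone formed sequencing pool 2. The mouse of each library is not in the sheet, so n is a number of libraries, some from the same animal, and the p-values below may be smaller than a test over animals would give. In 13 genes, 32 values exceeded 65536, the number of sequences that an 8-nucleotide molecular identifier can take, so those values are not numbers of distinct molecules. Counts of genes with near-identical copies, such as defensins and clustered histone genes, can be split or lost by the counting and are uncertain. In pooled cells, fewer cells of a type and less RNA per cell cannot be told apart.

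Of 13672 genes tested, 2938 were called higher in Ret-EGFP+ cells and 2919 lower at an adjusted p under 0.1 (edgeR quasi-likelihood test, Benjamini-Hochberg adjustment). These are 21.5% and 21.4% of the genes tested, 42.8% together, and in 23.1% of genes the 5 values of one group did not overlap the 5 of the other. The median log2 fold change over all tested genes was 0.10. With library totals alone in place of TMM factors this median was 0.68, and the split moved from 2938 higher and 2919 lower to 4780 higher and 1824 lower. Log2 differences smaller than this shift depend on the scaling, and family medians and counts below are to be read against those of all genes. With plate as a covariate 2567 genes were called higher and 2718 lower, and without the plate 4 pair 2092 and 2391. Pool 2 holds 1 library of each group, too few for a test of its own.

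The sort was checked on its own marker. Ret, at 34.3, 32.7, 15.3, 24.1 and 49.1 CPM in Ret-EGFP+ replicates 1 to 5, was at 0, 0.727, 0.588, 2.27 and 1.42 CPM in the non-EGFP replicates. The groups did not overlap (log2 fold change 5.17, SE 0.63, adjusted p = 1.72e-07), a direction that the gate itself set. The enteroendocrine markers moved with it. Neurod1, a transcription factor of endocrine cells, was at 716, 629, 608, 626 and 589 CPM against 23.99, 24.7, 40.6, 30.6 and 19.8 CPM (log2 fold change 4.53, SE 0.21, adjusted p = 5.68e-16). Scg2, a granule protein, was at 2002, 1881, 2082, 1871 and 1679.6 CPM against 21.4, 25.8, 8.82, 17.02 and 24.4 CPM (log2 fold change 6.57, SE 0.24, adjusted p = 3.35e-18). For Cpe, which trims hormone precursors, the values were 3273, 3017, 3554, 3646 and 2839.6 CPM against 70.8, 89.8, 109.9, 34.03 and 94.9 CPM (log2 fold change 5.34, SE 0.24, adjusted p = 1.41e-16). Every Ret-EGFP+ library lay far above every non-EGFP library for all of these. Chga, the chromogranin of many endocrine cells, was at 1281, 1944, 2297, 2192 and 1340.3 CPM against 218, 320.4, 209, 35.2 and 96.6 CPM (log2 fold change 3.35, SE 0.54, adjusted p = 0.00127), again without overlap but with a wider spread among the non-EGFP libraries, where replicates 4 and 5 were lowest.

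The labelled epithelial origin was checked on 7 epithelial genes, which summed to 2336 to 2926 CPM in Ret-EGFP+ and 3924 to 6150.2 CPM in non-EGFP libraries. Cdh1 was called higher, Epcam, Krt18 and Krt19 lower, and Krt8, Vil1 and Cdx2 were not called. Markers of cells outside the epithelium summed to low levels in Ret-EGFP+ libraries, though some members were called higher. Of the enteric neuron genes, Tbx3 and Prph (1.16 against 0 CPM) were called higher and 2 lower. Prph had no count in Ret-EGFP+ replicates 2 and 4, so its groups overlapped. Of 11 enteric neuron genes 9 had no count in Ret-EGFP+ libraries, the defining Hand2, Nos1 and Vip among them, and the summed level of 48.2 to 77.0 CPM (non-EGFP, 22.5 to 37.4 CPM) came mostly from Tbx3, a T-box factor that is not confined to neurons. Enteric glial genes summed to 2.94 to 7.67 CPM against 0 to 4.11 CPM, with Sox10, Gfap and Foxd3 at 0 in all libraries. Of 17 T cell and innate lymphoid genes 2, Il7r and Thy1, were called higher and 8 lower. Thy1 had counts in Ret-EGFP+ replicate 1 alone (5.10 CPM). Il7r was at 5.44, 0, 8.61, 0 and 0.274 CPM in Ret-EGFP+ replicates 1 to 5, with overlap between groups. The sum of the 17 genes was 12.9 to 61.5 CPM in Ret-EGFP+ against 109 to 571 CPM in non-EGFP libraries. Macrophage genes summed to 2.00 to 6.11 against 2.27 to 81.5 CPM, with C1qa called higher and 2 lower. Fibroblast genes summed to 27.2 to 117 against 12.7 to 65.5 CPM, with Vim called higher and 0 lower. The sum came mostly from Vim (71.4 ± 37.6 against 27.4 ± 22.2 CPM), whose groups overlapped. Col1a1, Col3a1, Dcn and Lum had no count in any library. Mast cell genes summed to 4.39 to 18.2 against 18.2 to 84.0 CPM (0 higher, 3 lower). Endothelial genes summed to 1.18 to 10.7 against 0 to 9.99 CPM, with 0 called. Paneth genes summed to 3359 to 8312 CPM against 189838 to 494601 CPM. The part of these other cells in the differences below was not tested.

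Promoter sequences of 5 endocrine genes are shown here, 4 of them called higher and Sst not, so that their letters can be set beside the values. They are from RefSeq on GRCm38.p6, 5′ to 3′ on the strand of the gene, with the searched motif in capitals. Scg2 and Chgb, both granins, and the somatostatin gene Sst carry the cAMP response element TGACGTCA shortly before the start site, and the glucagon gene Gcg and the cholecystokinin gene Cck carry the E-box CAGATG, a sequence that NEUROD1 can bind. The windows span chr1:79440076-79440105 on the minus strand (Scg2), chr2:132781559-132781588 on the plus strand (Chgb), chr16:23890874-23890903 on the minus strand (Sst), chr2:62483775-62483804 on the minus strand (Gcg) and chr9:121495707-121495736 on the minus strand (Cck).
Scg2: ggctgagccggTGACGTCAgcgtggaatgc
Chgb: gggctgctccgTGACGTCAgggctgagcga
Sst: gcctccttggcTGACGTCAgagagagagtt
Gcg: cagcgtaaaaagCAGATGagcaaagtgagt
Cck: gcactgggtaaaCAGATGactggctgcgaa

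The same letters stood in promoters of genes called lower. RefSeq promoters were found for 10523 of 13672 tested genes, and these 13468 promoters were searched on both strands from 250 bases before the start to 50 after it. TGACGTCA was found in 2.37% of promoters of genes called higher, 2.71% of those called lower and 3.01% of all. CAGATG was in 13%, 12.1% and 11.7%. The other E-box, CAGCTG, was in 18.9%, 14.6% and 15.7%. The left part of the element read by REST, TTCAGCACC, was rare, at 0.568%, 0.186% and 0.342%, and its right part, GGACAGCG, was at 1.74%, 1.78% and 1.98%. In the same order, the HNF4 element CAAAGTCC was at 1.44%, 1.89% and 1.47%, the GATA element AGATAAG at 1.94%, 2.41% and 1.98%, and the TATA box TATAAA at 8.69%, 9.17% and 7.88%. Median GC content was 60.7% in promoters of genes called higher and 58.7% in those called lower. A promoter could hold several motifs, and each motif was counted on its own. The shares are a description, without a test, and a match is not a bound site.

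The make-up of the libraries differed as much as single genes did. Hormone and granule genes took 29.1, 32.6, 31.04, 34.1 and 32.2% of the counts of Ret-EGFP+ replicates 1 to 5 and 0.483, 0.695, 0.460, 0.501 and 0.847% of those of non-EGFP replicates 1 to 5. Paneth and goblet cell effectors, the defensins and other secreted proteins, took 2.50, 2.75, 2.59, 2.57 and 3.13% against 31.8, 32.9, 44.6, 44.5 and 23.6%. One group was thus rich in transcripts of hormones and granules, and the other, with a wider spread, in those of antimicrobial and mucus proteins. With genes above the identifier limit left out, which removes the most abundant of both classes, the difference was 5.23 percentage points for hormone and granule genes and -9.70 for Paneth and goblet effectors, in the same directions. Transcripts encoded by mitochondrial DNA took 1.04 ± 0.123% against 1.78 ± 0.218% (SD, n = 5), cytosolic ribosomal protein genes 1.35 ± 0.0927% against 2.68 ± 0.698%, and histone genes 0.287 ± 0.0110% against 0.443 ± 0.0820%. Predicted, Riken and unnamed genes took 1.52 ± 0.0442% against 4.44 ± 1.004%, but this class holds the defensin genes AY761184 and Gm14851, and with genes above the identifier limit left out the share was higher in Ret-EGFP+ libraries by 0.433 percentage points. The groups did not overlap in any of these 6 classes, and each gave an exact two-sided permutation p of 0.00794, the smallest that 5 against 5 allows (adjusted over 7 classes, 0.00926). The classes were listed with earlier results of these data known, and the libraries came from 3 mice. These p-values therefore describe how the libraries separated and are not independent support. The 10 most abundant genes of each library held 34.8 ± 1.39% against 36.8 ± 8.30%, which did not differ beyond the spread (exact permutation p = 0.587).

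**Figure D1:**
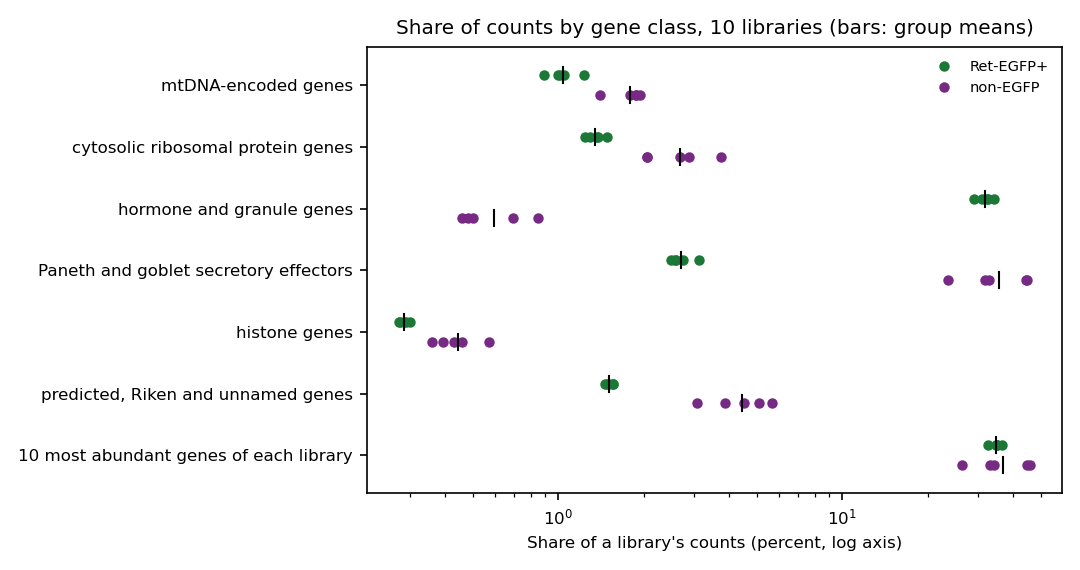
Percent of a library's counts (log axis) in 7 gene classes for 5 Ret-EGFP+ (green) and 5 non-EGFP (purple) libraries, with black bars for group means. Hormone and granule genes lie near 32% in Ret-EGFP+ and under 1% in non-EGFP libraries, and the shares of the 10 most abundant genes overlap.

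The 10 largest gains in mean CPM were 7 hormones, Chgb, the nuclear noncoding RNA Malat1 and Myl7. Ghrl, the ghrelin gene, was at 88143, 92016, 69660.5, 104174 and 80252 CPM in Ret-EGFP+ replicates 1 to 5 and at 825, 1106, 1501, 1974 and 2705 CPM in non-EGFP ones (log2 fold change 5.74, SE 0.30, adjusted p = 1.30e-10). It was the most abundant of the 10 in every Ret-EGFP+ library. Neurotensin (Nts) had means of 46709 ± 5301 against 259.6 ± 169 CPM (log2 fold change 7.49, SE 0.51, adjusted p = 1.45e-06), secretin (Sct) of 28426 ± 9815 against 793 ± 240.3 CPM (log2 fold change 5.16, SE 0.24, adjusted p = 1.65e-14) and glucagon (Gcg) of 26725 ± 4109.6 against 249.98 ± 72.5 CPM (log2 fold change 6.73, SE 0.22, adjusted p = 5.81e-19). Peptide YY (Pyy) was at 7134, 22314, 28461, 28527 and 31752 CPM, with replicate 1 far below the others, against 141, 104, 410.3, 187 and 658 CPM (log2 fold change 6.30, SE 0.75, adjusted p = 2.34e-04). Means of Cck were 18620.2 ± 2650.4 against 292 ± 105 CPM (log2 fold change 5.99, SE 0.23, adjusted p = 5.53e-18) and of Chgb 14999 ± 2539.9 against 1655 ± 897 CPM (log2 fold change 3.18, SE 0.35, adjusted p = 1.83e-05). Malat1 gained least in proportion, with 24896 ± 3885 against 11212 ± 1989 CPM (log2 fold change 1.15, SE 0.16, adjusted p = 9.50e-07). Ghrl, Nts, Sct, Gcg, Pyy, Cck and Malat1 are among the 13 genes with counts above the identifier limit of 65536. Such counts are not numbers of distinct molecules.

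Myl7 stood out among the gains, since it is known as a myosin regulatory light chain of the heart atrium. It was at 3899, 3435, 3539.6, 3671 and 7508 CPM in Ret-EGFP+ replicates 1 to 5 and at 134.1, 119, 101, 98.7 and 191 CPM in non-EGFP replicates 1 to 5 (log2 fold change 5.09, SE 0.25, adjusted p = 6.41e-14). The groups were far apart, and replicate 5 was highest in both. The glucose-dependent insulinotropic polypeptide gene, Gip, was the one gain whose groups overlapped, at 591, 2483, 4793, 7515 and 10890.3 CPM against 955, 1035, 531, 976 and 1392 CPM (log2 fold change 2.43, SE 0.70, adjusted p = 0.0283). Ret-EGFP+ replicate 1 lay below 4 of the 5 non-EGFP libraries, and replicates 2 to 5 above all of them.

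The 10 largest losses were 9 transcripts known mostly from Paneth, goblet and absorptive cells and 1 mitochondrial transcript. Not all genes of absorptive cells were lower. Of 6 enterocyte markers 4 were called lower and 1, Sis, higher, at 1170 ± 180 against 320 ± 87.4 CPM without overlap. Defa24, a Paneth cell defensin, was at 2598, 3639.7, 3533, 3853 and 6690.1 CPM in Ret-EGFP+ and at 193793, 210272, 380014, 369025 and 154965 CPM in non-EGFP libraries (log2 fold change -6.01, SE 0.36, adjusted p = 2.97e-08). Non-EGFP replicates 3 and 4 carried the most, and even the lowest of that group was far above every Ret-EGFP+ library. Defa30 (682 ± 280.0 against 44561 ± 16301 CPM), AY761184 (277 ± 64.9 against 22653 ± 9585 CPM) and Gm14851 (185 ± 48.6 against 18289 ± 8073 CPM) behaved alike, with log2 fold changes of -6.03, -6.35 and -6.62. The antimicrobial enzyme Lyz1 and the lectin Itln1 had log2 fold changes of -6.43 and -6.45, and neither overlapped. Spink4, a goblet cell protease inhibitor, had 2714 ± 653 against 34864 ± 7050.3 CPM (log2 fold change -3.68, SE 0.19, adjusted p = 3.29e-15), and Guca2a, the precursor of guanylin, 247 ± 75.3 against 10164 ± 1617 CPM (log2 fold change -5.36, SE 0.21, adjusted p = 1.68e-17). Tff3, a trefoil peptide of mucus, differed least in proportion among the 10, at 5439, 5065, 4467, 5045 and 5892 CPM in Ret-EGFP+ and 14913, 16589.7, 13038, 7638 and 12350.5 CPM in non-EGFP libraries (log2 fold change -1.32, SE 0.17, adjusted p = 4.68e-07). The mitochondrial cytochrome b transcript, mt-Cytb, had 3715 ± 505 against 12899 ± 1445 CPM (log2 fold change -1.80, SE 0.15, adjusted p = 1.36e-10). Defa24, Defa30, AY761184, Gm14851 and Spink4 are also among the 13 genes with counts above the identifier limit.

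**Figure D2:**
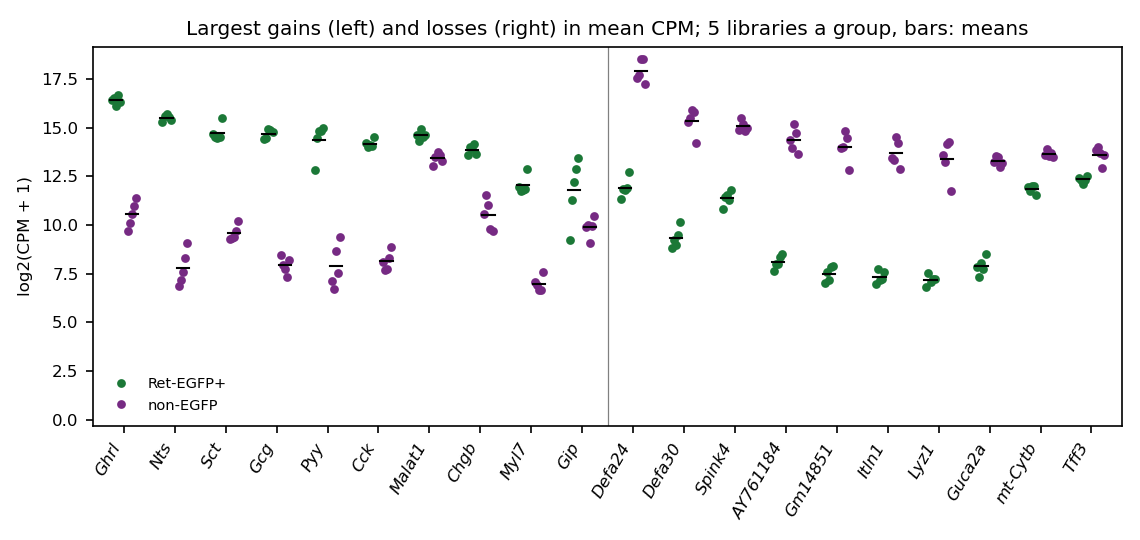
Level of the 10 genes with the largest gain (left) and the 10 with the largest loss (right) in mean CPM, as log2(CPM + 1), in each of 5 Ret-EGFP+ (green) and 5 non-EGFP (purple) libraries, with black bars for means. Gip is the one gene of the 20 whose groups overlap.

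Gene families were read by symbol in 12 categories. In each category, among families with at least 5 tested members, the one with the highest median log2 fold change, the one with the lowest and the one with most tested members are described, 33 families in all, and a few others are named beside them. Shares of members called ran from 0% higher and 85.7% lower in mitochondrial ribosomal proteins to 71.4% higher and 0% lower in the few collagens tested. Members with almost no counts are not in these shares, and a rare gene passes the filter on low counts mostly through the group in which it is high. In families of rare genes, such as Hox genes, collagens and protocadherins, the filter may thus partly set the split between higher and lower. Below, where all 10 values of a called gene are given, the groups did not overlap unless the text says so. Of called genes given by their means, groups overlapped for Dbp, Tef, Per3, Kcnq1ot1, Dgkb, Igf1r, Spr, Car8, Tlr5 and the Hox genes.

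**Figure D3:**
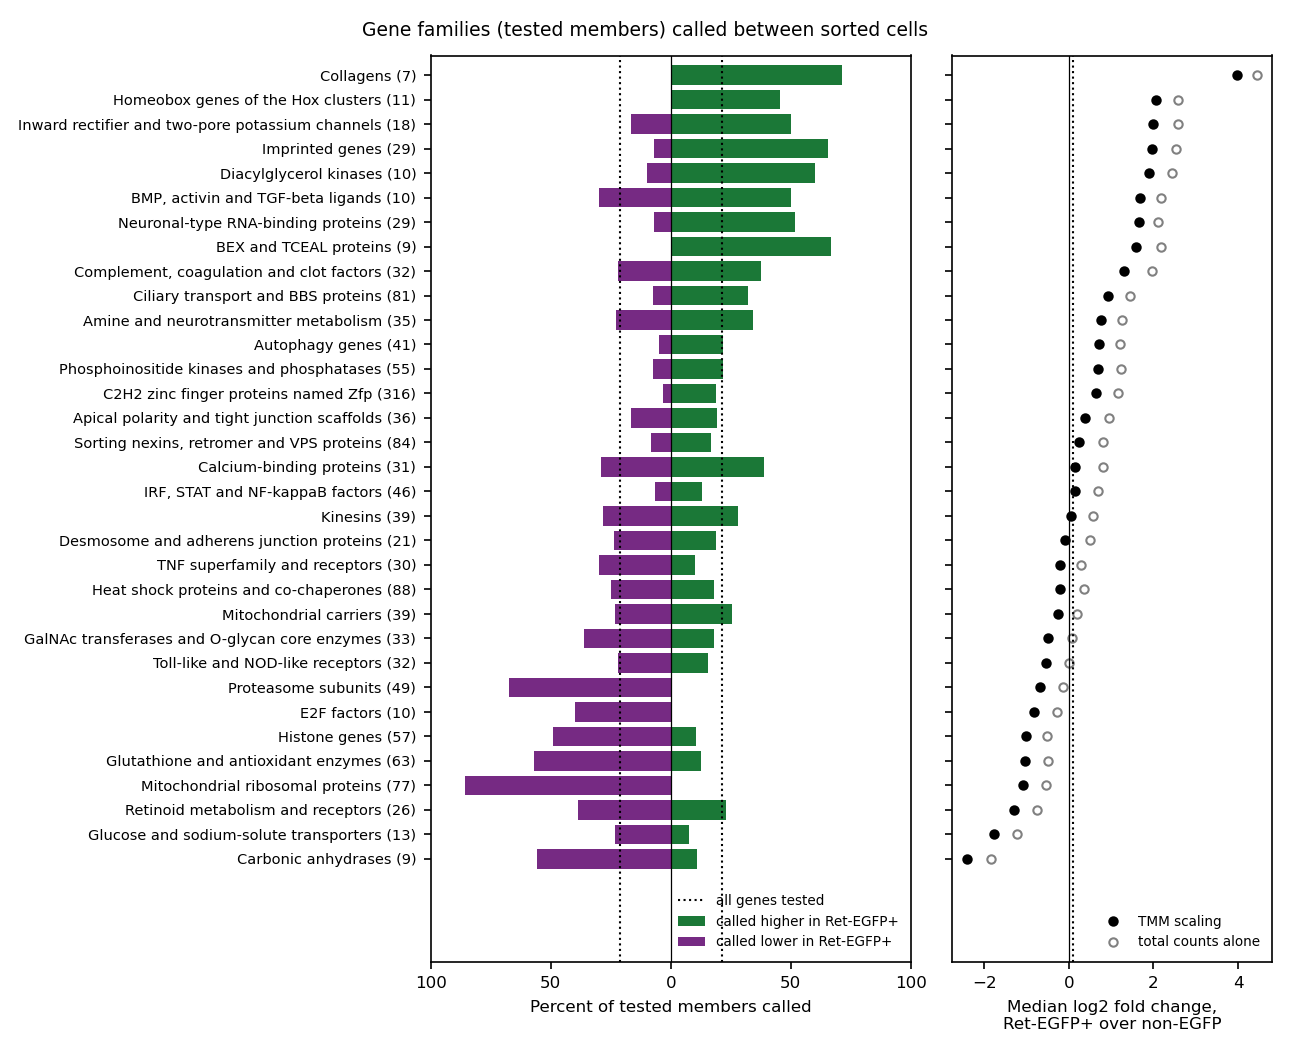
Left, percent of tested members called higher (green) or lower (purple) in Ret-EGFP+ cells for the 33 families described (members tested in parentheses), with dotted lines at the shares of all genes. Right, median log2 fold change with TMM scaling (black) and with total counts alone (grey, open), where the dotted line marks the median of all genes. Mitochondrial ribosomal proteins and proteasome subunits show no member called higher, and the medians of 6 families from desmosome proteins to Toll-like receptors lie below 0 with TMM and at or above 0 with total counts.

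Among transcription factors, genes of the Hox clusters, which pattern the body from front to back, had the highest median of the families with at least 5 tested members. Of 39 listed genes, 11 were tested, 5 were called higher and 0 lower, with a median log2 fold change of 2.06. All were rare: Hoxb9, the highest of those called, had 8.06 ± 7.50 against 0.580 ± 0.824 CPM (log2 fold change 4.12, SE 1.19, adjusted p = 0.00835) and Hoxb8 5.93 ± 4.06 against 0.368 ± 0.526 CPM (log2 fold change 4.05, SE 1.20, adjusted p = 0.0100), and no Hox gene separated all 10 libraries. Of the other 3 called, Hoxb4, Hoxb5 and Hoxa5, Hoxb4 had 6.31 ± 4.66 against 0.939 ± 1.42 CPM. All 4 tested MYT1 and INSM zinc fingers, a family below that size, were called higher (median 4.14). Myt1 was at 48.6, 56.8, 41.6, 25.3 and 23.02 CPM against 0.941, 1.09, 4.70, 0 and 0.566 CPM (log2 fold change 4.75, SE 0.56, adjusted p = 9.94e-08), St18 at 61.7 ± 16.8 against 11.3 ± 13.7 CPM and Insm1 at 86.1 ± 12.7 against 7.05 ± 2.77 CPM, each without overlap. Of RFX factors, 4 of 8 were called higher and 0 lower. Rfx6, needed for endocrine cell formation, had 35.5 ± 13.4 against 3.39 ± 2.58 CPM, and Rfx2, known from ciliated cells, had 4.76, 0.668, 12.4, 2.94 and 5.21 CPM against 0 in every non-EGFP library, at least 23.9-fold higher by a floor of 3 counts over the non-EGFP group.

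E2F factors, which drive genes of DNA replication, had the lowest median of that category (-0.83), with 4 of 10 called lower and 0 higher. Tfdp2, an E2F partner, was at 15.6, 29.4, 15.3, 27.04 and 44.1 CPM against 63.7, 85.8, 106, 107 and 85.0 CPM, with no overlap (log2 fold change -1.75, SE 0.30, adjusted p = 2.70e-05), and E2f8 at 0.118 ± 0.263 against 5.01 ± 2.65 CPM. The family with most tested members, C2H2 zinc finger proteins named Zfp, had 60 of 316 members called higher and 10 lower, with a median of 0.64. Its share called higher, 18.99%, was under the 21.5% of all genes, and its share called lower, 3.16%, was far under the 21.4%. Zfp618 was at 20.4, 30.7, 43.5, 15.9 and 21.4 CPM against 0.235, 1.09, 1.18, 3.40 and 0 CPM (log2 fold change 4.94, SE 0.69, adjusted p = 1.64e-06). Zfp106 went the other way, at 50.3, 33.4, 32.5, 44.7 and 52.4 CPM against 127, 165, 153, 145 and 155 CPM (log2 fold change -1.80, SE 0.22, adjusted p = 1.81e-07). Zfp91, the most abundant not called, had 138 ± 22.7 against 127 ± 15.7 CPM (log2 fold change 0.12, SE 0.20, adjusted p = 0.671). Circadian clock genes had 8 of 21 called higher and 0 lower, led by the repressor Cry2 at 36.3, 8.02, 20.6, 28.2 and 16.4 CPM against 3.53, 0, 0.588, 1.13 and 2.27 CPM (log2 fold change 3.68, SE 0.66, adjusted p = 6.60e-05). The output factors Dbp (14.2 ± 6.96 against 3.25 ± 4.08 CPM) and Tef (17.2 ± 5.55 against 4.56 ± 6.79 CPM) and the period gene Per3 (12.1 ± 7.10 against 3.28 ± 3.07 CPM) were also called higher. The hour at which tissue was taken is not in the sources used here.

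Imprinted genes, expressed from one parental copy, had the highest median among chromatin categories (1.96): 19 of 29 tested were called higher and 2 lower. Peg3, a paternally expressed zinc finger gene, was at 204, 233, 174, 183 and 239.6 CPM in Ret-EGFP+ and at 3.76, 11.3, 5.88, 29.5 and 6.23 CPM in non-EGFP libraries, with no overlap (log2 fold change 4.41, SE 0.40, adjusted p = 3.51e-08). The cell cycle inhibitor Cdkn1c, maternally expressed, was at 418, 204, 281, 311 and 293 CPM against 24.7, 30.6, 38.8, 14.7 and 6.80 CPM (log2 fold change 3.70, SE 0.35, adjusted p = 6.70e-08). So genes expressed from either parental copy were among those called higher. Ddc, the decarboxylase that makes serotonin and dopamine and is imprinted in the heart, was at 372, 363, 374, 429 and 413 CPM against 75.7, 96.4, 95.2, 53.3 and 76.7 CPM (log2 fold change 2.29, SE 0.19, adjusted p = 1.40e-10). Gnas, which encodes a stimulatory G protein subunit, had 886 ± 167 against 512 ± 38.8 CPM (log2 fold change 0.79, SE 0.16, adjusted p = 3.45e-04), and Nap1l5 had 16.7 ± 10.5 against 0.574 ± 1.13 CPM. The members called lower were the noncoding RNA Kcnq1ot1 (9.89 ± 6.82 against 43.4 ± 30.8 CPM) and Ascl2, a stem cell factor in the crypt that is imprinted in the placenta. Ascl2 had no count in any Ret-EGFP+ library and 39.5, 34.6, 28.2, 32.9 and 49.0 CPM in the non-EGFP ones, at least 155-fold lower by a floor of 3 counts over the Ret-EGFP+ group.

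Histone genes, a list that also holds HMG proteins of chromatin, had the lowest median of the chromatin families (-1.02), with 28 of 57 called lower and 6 higher. The variant H2afv was at 378, 339, 452, 413 and 437 CPM against 1748, 2193, 1725, 1592 and 2635 CPM (log2 fold change -2.29, SE 0.17, adjusted p = 1.38e-11). Hist1h1b, a linker histone of replicating cells, had 0.763 ± 1.19 against 179 ± 116 CPM. Hmgn3, a nucleosome-binding protein, went the other way at 447, 517, 519, 533 and 521 CPM against 24.9, 78.2, 61.7, 46.5 and 43.05 CPM (log2 fold change 3.32, SE 0.24, adjusted p = 4.45e-12). Hist1h2bc, the most abundant not called, had 305 ± 48.2 against 315 ± 58.7 CPM (log2 fold change -0.05, SE 0.18, adjusted p = 0.868). Histone demethylases had 8 of 24 called higher and 0 lower. Kdm1a, which removes methyl groups from lysine 4 of histone H3, had 96.9 ± 21.01 against 32.6 ± 9.03 CPM and Kdm7a 94.3 ± 15.6 against 21.4 ± 5.94 CPM.

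RNA-binding proteins known mainly from neurons had 15 of 29 members called higher and 2 lower (median 1.66). Khdrbs3, a splicing regulator, was at 40.4, 68.1, 41.1, 49.4 and 35.1 CPM against 7.06, 0.727, 5.29, 9.08 and 4.81 CPM, without overlap (log2 fold change 3.17, SE 0.44, adjusted p = 1.42e-06). Srrm3, which promotes inclusion of neuronal microexons, had 20.6 ± 2.43 against 0.447 ± 0.717 CPM (log2 fold change 5.09, SE 0.74, adjusted p = 3.20e-06), and Celf6 13.7 ± 5.94 against 0.129 ± 0.179 CPM (log2 fold change 6.09, SE 0.91, adjusted p = 4.26e-06). Rbm38, an RNA-binding target of p53, and Mbnl3 were the members called lower.

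Mitochondrial ribosomal proteins, which translate the transcripts of mitochondrial DNA, had the largest share of members called in 1 direction among the 33 families: 66 of 77 were called lower and 0 higher, with a median of -1.08. Mrpl12 was at 77.1, 60.1, 51.2, 44.7 and 68.2 CPM against 318, 286, 249.8, 271 and 528 CPM (log2 fold change -2.45, SE 0.22, adjusted p = 8.68e-10), and non-EGFP replicate 5 stood above the other 4. Mrpl33, the most abundant not called, had 465 ± 32.8 against 579 ± 109 CPM (log2 fold change -0.32, SE 0.17, adjusted p = 0.137). The median was -0.53 with total counts alone, so the direction did not rest on the scaling, though the size did. Ribosome biogenesis factors had 26 of 64 called lower and 5 higher.

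Among enzymes of second messengers, diacylglycerol kinases, which turn the lipid messenger diacylglycerol into phosphatidic acid, had the highest median (1.89), with 6 of 10 called higher and 1 lower. Dgkh was at 24.1, 18.0, 13.9, 24.1 and 30.97 CPM against 1.65, 0.727, 0, 0 and 2.83 CPM (log2 fold change 4.07, SE 0.64, adjusted p = 1.05e-05), and Dgkb had 8.49 ± 5.19 against 0.637 ± 1.23 CPM (log2 fold change 3.35, SE 1.00, adjusted p = 0.0109). The member called lower, Dgki, had few counts. Phosphodiesterases, which break down cyclic nucleotides, had 8 of 16 called higher and 0 lower. Pde1c, which is stimulated by calcium, had 17.9 ± 11.2 against 1.19 ± 1.63 CPM (log2 fold change 3.85, SE 0.77, adjusted p = 2.33e-04), and Pde11a 21.04 ± 12.5 against 0.783 ± 1.23 CPM (log2 fold change 4.34, SE 0.77, adjusted p = 5.42e-05). Pde3b, which acts downstream of insulin in fat and islet cells, had 23.6 ± 10.1 against 3.65 ± 4.77 CPM (log2 fold change 3.05, SE 0.70, adjusted p = 0.00111). Each of those 3 separated the groups without overlap.

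Calcium-binding proteins moved both ways, with 12 of 31 called higher and 9 lower. Necab2, a neuronal calcium-binding protein, was at 11.6, 28.1, 16.7, 4.70 and 31.5 CPM in Ret-EGFP+ libraries and had no count in 4 of the 5 non-EGFP ones, with 1.70 CPM in replicate 5 (log2 fold change 5.26, SE 0.87, adjusted p = 2.17e-05). Sri, which encodes sorcin, was at 242, 267, 228, 266 and 282 CPM against 688, 910.0, 778, 668 and 805 CPM (log2 fold change -1.58, SE 0.16, adjusted p = 7.41e-09). Phosphoinositide kinases and phosphatases had 12 of 55 called higher, 21.8% beside the 21.5% of all genes, and 4 lower. Pik3ip1, an inhibitor of PI3 kinase, was at 12.6, 2.004, 15.3, 4.12 and 11.8 CPM against 0.470, 0, 0, 0 and 0 CPM (log2 fold change 5.62, SE 1.08, adjusted p = 1.47e-04). Pip5k1b, the most abundant not called, had 34.5 ± 7.42 against 22.4 ± 7.09 CPM (log2 fold change 0.64, SE 0.33, adjusted p = 0.136).

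Genes read as BMP, activin and TGF-beta ligands had 5 of 10 called higher and 3 lower (median 1.68), but the list caught by symbol a protease, Bmp1, and a kinase, Bmp2k. Bmp1, which processes procollagen and other matrix precursors, was at 16.3, 16.7, 34.4, 17.05 and 15.1 CPM against 0.235, 0.364, 5.29, 1.13 and 0.283 CPM (log2 fold change 3.97, SE 0.73, adjusted p = 9.56e-05), with Ret-EGFP+ replicate 3 above its group. Of true ligands, Bmp3 was at 0, 0, 0, 0 and 1.37 CPM against 20.5, 8.73, 11.2, 19.3 and 24.1 CPM (log2 fold change -5.31, SE 0.85, adjusted p = 1.24e-05). Ret-EGFP+ libraries had no count of it except replicate 5. Gdf15, a stress-induced circulating factor, had 22.8 ± 10.4 against 3.32 ± 3.62 CPM (log2 fold change 2.61, SE 0.66, adjusted p = 0.00285), and Lefty1, an inhibitor of Nodal signalling, 23.7 ± 7.97 against 4.17 ± 3.77 CPM (log2 fold change 2.37, SE 0.56, adjusted p = 0.00139). The insulin and IGF pathway had 10 of 22 called higher and 3 lower. Irs4, an adaptor of the insulin receptor, was at 7.47, 13.4, 14.8, 7.05 and 19.2 CPM and had no count in any non-EGFP library, at least 57.0-fold higher by a floor of 3 counts over the group. The receptor Insr had 19.1 ± 3.40 against 7.73 ± 2.65 CPM (log2 fold change 1.29, SE 0.45, adjusted p = 0.0293), whereas Igf1r, the IGF1 receptor, had 3.74 ± 3.11 against 10.8 ± 2.88 CPM (log2 fold change -1.55, SE 0.70, adjusted p = 0.0866).

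Retinoid genes had the lowest median among signalling families (-1.31), with 10 of 26 called lower and 6 higher. The share lower, 38.5%, was above the 21.4% of all genes, and the share higher, 23.1%, was near their 21.5%. The carriers that take retinol through the blood were called higher. Rbp4, the plasma retinol carrier, was at 2874, 2770.5, 3789, 3501 and 3429.7 CPM against 29.2, 56.0, 18.2, 20.4 and 75.6 CPM (log2 fold change 6.31, SE 0.40, adjusted p = 3.82e-08). Ttr, transthyretin, which binds RBP4 and thyroid hormone, was at 1147, 1144, 1096, 872 and 1147 CPM against 171, 167, 121, 121 and 155 CPM (log2 fold change 2.87, SE 0.18, adjusted p = 1.73e-13). Both were free of overlap, with little spread among Ret-EGFP+ libraries. Carriers that work inside cells were lower. Rbp7, a cellular retinol-binding protein, was at 9.85, 3.34, 2.39, 9.41 and 26.6 CPM against 394, 542, 424, 349 and 659 CPM (log2 fold change -5.41, SE 0.56, adjusted p = 2.80e-05), and Rbp2, the carrier of dietary retinol in enterocytes, at 8.49, 2.67, 7.17, 1.76 and 13.98 CPM against 93.6, 70.2, 62.9, 72.6 and 56.9 CPM (log2 fold change -3.29, SE 0.39, adjusted p = 9.20e-08). The carotene-cleaving enzymes parted, with Bco1 at 47.0 ± 16.01 against 4.15 ± 2.69 CPM (log2 fold change 3.41, SE 0.44, adjusted p = 3.66e-07) and Bco2 at 4.999 ± 4.26 against 28.1 ± 9.36 CPM (log2 fold change -2.52, SE 0.55, adjusted p = 6.93e-04).

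TNF superfamily genes had 3 of 30 called higher and 9 lower, with a median of -0.21 that was 0.29 with total counts alone. Tnfrsf12a, the receptor of TWEAK, was at 37.7, 14.03, 18.2, 35.3 and 29.6 CPM against 3.06, 5.82, 3.53, 0 and 1.98 CPM (log2 fold change 3.11, SE 0.54, adjusted p = 3.88e-05). Tnfsf10, the death ligand TRAIL, was at 0.340, 0, 0, 0 and 0.548 CPM against 12.9, 2.91, 3.53, 18.2 and 5.38 CPM (log2 fold change -4.93, SE 1.06, adjusted p = 5.74e-04). Tnfaip1, the most abundant not called, had 16.5 ± 7.87 against 16.1 ± 4.97 CPM (log2 fold change 0.03, SE 0.44, adjusted p = 0.964). The list caught it by symbol, and it is neither a ligand nor a receptor of the superfamily.

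Potassium channels that set the resting potential, with their sulfonylurea receptor subunit and the calcium- and sodium-activated channels, had 9 of 18 members called higher and 3 lower (median 1.98). Kcnk16, a two-pore channel known from pancreatic islets, was at 51.3, 52.1, 34.4, 24.1 and 42.5 CPM against 0.706, 1.82, 0.588, 1.13 and 0.566 CPM (log2 fold change 5.38, SE 0.50, adjusted p = 1.23e-09). Abcc8, the sulfonylurea receptor of the ATP-sensitive channel, had 76.7 ± 15.1 against 2.66 ± 2.33 CPM (log2 fold change 4.61, SE 0.43, adjusted p = 1.39e-09), and Kcnj3, a channel opened by G protein beta-gamma subunits, 23.2 ± 10.4 against 0.247 ± 0.252 CPM (log2 fold change 6.34, SE 0.74, adjusted p = 8.32e-08). Kcnn4, a calcium-activated channel of epithelia and blood cells, went the other way and was at 0, 0, 0, 0 and 0.822 CPM against 62.6, 19.3, 57.0, 12.5 and 43.9 CPM (log2 fold change -7.09, SE 0.72, adjusted p = 6.08e-09), and Kcnk5 had no count in Ret-EGFP+ libraries against a mean of 3.42 CPM in non-EGFP ones, at least 12.99-fold lower by the floor of 3 counts.

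Glucose and sodium-solute transporters had the lowest median among transporters (-1.76), though only 3 of 13 were called lower and 1 higher. The share lower, 23.1%, was near the 21.4% of all genes, and the share higher, 7.69%, was below their 21.5%. The basolateral glucose carrier Slc2a2 was at 0, 0.668, 3.82, 0 and 6.58 CPM against 17.4, 18.9, 17.6, 11.3 and 28.3 CPM (log2 fold change -2.95, SE 0.72, adjusted p = 0.00208). Slc2a5, the fructose carrier, went the other way at 16.6, 24.1, 27.2, 34.1 and 28.5 CPM against 5.64, 1.09, 8.82, 3.40 and 5.66 CPM (log2 fold change 2.39, SE 0.49, adjusted p = 3.44e-04). Neither pair of groups overlapped.

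Mitochondrial carriers, the transporter family with most tested members, had 10 of 39 called higher and 9 lower. These shares, 25.6% and 23.1%, were near the 21.5% and 21.4% of all genes. The median of -0.25 turned to 0.19 with total counts alone. The ADP/ATP carriers moved in opposite directions. Slc25a4, the form of heart and muscle, was at 404, 388, 460.4, 472 and 343 CPM in Ret-EGFP+ and 47.0, 31.6, 72.9, 36.3 and 41.9 CPM in non-EGFP libraries (log2 fold change 3.17, SE 0.22, adjusted p = 3.00e-12). Slc25a5, the form common in dividing tissue, was at 442, 367, 479, 497 and 416 CPM and 1377, 1282, 1462, 844 and 1629.9 CPM (log2 fold change -1.58, SE 0.18, adjusted p = 3.00e-08). In Ret-EGFP+ libraries the levels of both were alike, whereas in every non-EGFP library Slc25a5 was many times Slc25a4. Slc25a13, the aspartate-glutamate carrier citrin, had no count in Ret-EGFP+ libraries against a mean of 14.7 CPM, at least 52.5-fold lower. Slc25a1, the citrate carrier and the most abundant not called, had 50.5 ± 14.5 against 34.1 ± 16.8 CPM (log2 fold change 0.55, SE 0.33, adjusted p = 0.207). Vacuolar proton pump subunits, which acidify granules and lysosomes, had 9 of 18 called higher and 0 lower. Atp6v1b2 had 101 ± 10.3 against 27.7 ± 6.60 CPM (log2 fold change 1.84, SE 0.25, adjusted p = 8.40e-07). Slc18a1, the vesicular monoamine transporter of endocrine cells, had 186 ± 35.01 against 17.6 ± 7.42 CPM (log2 fold change 3.37, SE 0.27, adjusted p = 5.10e-11).

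**Figure D4:**
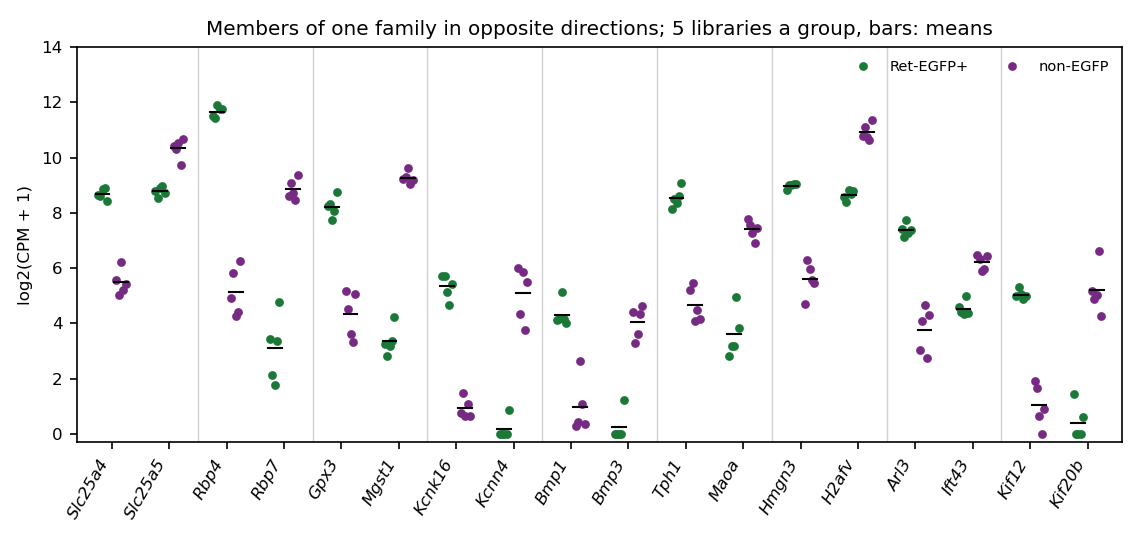
Level as log2(CPM + 1) of 9 pairs of genes from the same list that moved in opposite directions, in 5 Ret-EGFP+ (green) and 5 non-EGFP (purple) libraries, with black bars for means. In each pair the left gene lies higher in every Ret-EGFP+ library and the right gene lower in every one.

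Collagens had the highest median of the 33 families (3.97), but only 7 of 44 passed the filter on low counts, 5 were called higher and 0 lower. Of the fibril collagens of fibroblasts, Col1a1 and Col3a1 had no count in any library, and Col1a2 had 1. Col8a1, a short-chain collagen, was at 19.7, 22.05, 9.08, 9.99 and 18.9 CPM against 0, 0.364, 0, 0 and 0 CPM (log2 fold change 6.97, SE 0.92, adjusted p = 6.45e-07). Col17a1, a transmembrane collagen of hemidesmosomes, was at 11.6, 20.04, 11.5, 12.3 and 8.50 CPM with no count in any non-EGFP library, at least 51.5-fold higher. Of 69 protocadherins, adhesion proteins of neurons, 33 had no count in any library and 17 were tested. Of these 17, 8 were called higher and 0 lower, all at low levels, such as Pcdhb17 at 5.06 ± 2.84 against 0.456 ± 0.742 CPM. At such levels a gene passes the filter mostly through the group in which it is high. Among cadherins 8 of 12 were called higher and 1 lower. They included the protocadherins of the brush border Cdhr2, at 198, 199.8, 251, 182 and 229.7 CPM against 39.98, 58.6, 50.5, 59.0 and 69.4 CPM (log2 fold change 1.94, SE 0.21, adjusted p = 1.70e-08), and Cdhr5, with 219 ± 80.0 against 95.03 ± 20.97 CPM (log2 fold change 1.22, SE 0.23, adjusted p = 1.23e-04).

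Desmosome and adherens junction proteins had 4 of 21 called higher and 5 lower, with a median of -0.08 that was 0.50 with total counts alone. Neither share was far from that of all genes. The one higher was slightly below their 21.5%, and the one lower slightly above their 21.4%. Evpl, envoplakin, was at 6.79, 36.1, 3.82, 11.2 and 7.67 CPM against 1.41, 0.364, 0, 2.27 and 0.566 CPM (log2 fold change 3.88, SE 0.85, adjusted p = 7.13e-04), with Ret-EGFP+ replicate 2 well above the rest. Afdn, afadin, was at 303, 303, 199.8, 202 and 369.8 CPM against 393, 449.5, 515, 506 and 715 CPM (log2 fold change -0.90, SE 0.20, adjusted p = 6.66e-04), a call lost with total counts alone. Polarity and tight junction scaffolds had 7 of 36 called higher and 6 lower, 19.4% and 16.7%, each below the share of all genes. Lin7a, a scaffold also found at synapses, was at 6.45, 20.7, 11, 24.7 and 19.5 CPM and had no count in any non-EGFP library, at least 68.4-fold higher by the same floor. Tjp3 was at 7.47, 17.4, 6.69, 5.88 and 12.3 CPM against 41.4, 29.8, 27.04, 43.1 and 45.3 CPM (log2 fold change -1.91, SE 0.38, adjusted p = 2.60e-04). Crb3, the most abundant not called, had 58.9 ± 21.97 against 69.9 ± 9.05 CPM (log2 fold change -0.24, SE 0.26, adjusted p = 0.514).

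BEX and TCEAL proteins, small X-linked proteins abundant in brain and endocrine tissue, had the highest median of the cytoskeletal category in which they were listed (1.59), with 6 of 9 called higher and 0 lower. Bex2 was at 239.8, 289, 199, 269 and 288 CPM against 13.4, 17.1, 4.11, 10.2 and 15.3 CPM (log2 fold change 4.36, SE 0.28, adjusted p = 3.76e-13), and Bex3 had 695 ± 83.2 against 139 ± 22.4 CPM (log2 fold change 2.32, SE 0.18, adjusted p = 1.83e-11). Kinesins moved both ways. Of 39 members 11 were called higher and 11 lower, 28.2% each way beside 21.5% and 21.4% of all genes. Kif20b, a motor of cell division, was at 1.70, 0, 0, 0 and 0.548 CPM against 35.5, 28.4, 31.7, 96.4 and 18.4 CPM (log2 fold change -6.07, SE 0.67, adjusted p = 2.63e-08), and the mitotic motors Kif23 (0.760 ± 0.981 against 31.6 ± 26.0 CPM) and Kif11 (1.43 ± 2.13 against 14.9 ± 6.60 CPM) were lower too. Kif12 was at 30.6, 38.7, 32.5, 28.2 and 30.97 CPM against 2.82, 2.18, 0.588, 0 and 0.850 CPM (log2 fold change 4.35, SE 0.53, adjusted p = 1.45e-07). Kif1a, the motor of synaptic and dense-core vesicles in neurons, had 36.5 ± 14.02 against 1.02 ± 1.57 CPM (log2 fold change 4.90, SE 0.63, adjusted p = 4.13e-07), and Kif5c 24.3 ± 9.97 against 0.659 ± 1.47 CPM (log2 fold change 4.68, SE 0.77, adjusted p = 1.90e-05).

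Genes of ciliary transport, with some of centrosomes, had 26 of 81 members called higher and 6 lower (median 0.94). Arl3, a small GTPase that releases lipid-modified cargo in cilia, was at 169.9, 140.3, 213, 155 and 167 CPM against 7.29, 16, 24.1, 5.67 and 18.98 CPM (log2 fold change 3.52, SE 0.30, adjusted p = 1.91e-10). Subunits of the intraflagellar transport particles parted, with Ift57 at 26.4 ± 12.8 against 1.33 ± 0.631 CPM (log2 fold change 4.23, SE 0.59, adjusted p = 1.32e-06), Ift122 at 16.2 ± 8.72 against 2.60 ± 3.07 CPM (log2 fold change 2.92, SE 0.71, adjusted p = 0.00195) and Ift43 at 23.1, 20.04, 19.1, 30.6 and 19.7 CPM against 87.7, 78.6, 58.2, 61.3 and 86.7 CPM (log2 fold change -1.73, SE 0.27, adjusted p = 9.30e-06). Ift20, which also works at the Golgi, was the most abundant not called, with 335 ± 49.0 against 346 ± 24.4 CPM (log2 fold change -0.05, SE 0.17, adjusted p = 0.860). Bbs1 and Bbs4, subunits of the coat complex of cilia, had 4.70 ± 2.88 against 0.227 ± 0.507 CPM and 26.5 ± 9.07 against 5.54 ± 3.52 CPM. Among those called lower was Cep55, a protein of cell division rather than of cilia (0.213 ± 0.294 against 13.3 ± 6.97 CPM).

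Autophagy genes had 9 of 41 called higher and 2 lower, so the share higher, 21.95%, was close to the 21.5% of all genes. Atg16l2 was at 20.7, 18.0, 15.8, 5.88 and 8.77 CPM against 1.41, 0.364, 2.94, 0 and 0.283 CPM (log2 fold change 3.71, SE 0.77, adjusted p = 3.87e-04). Map1lc3b, the LC3 protein of autophagosomes, was at 94.8, 92.9, 94.2, 82.9 and 89.1 CPM against 120.2, 145, 162, 116 and 115 CPM (log2 fold change -0.53, SE 0.20, adjusted p = 0.0391), and its log2 fold change turned to 0.037 with total counts alone. Sorting nexins, retromer and VPS proteins had 14 of 84 called higher and 7 lower. As shares these were 16.7% and 8.33%, both below the 21.5% and 21.4% of all genes. Vps50, part of a complex that recycles endosomal cargo and, in worms, of dense-core vesicle maturation, was at 55.7, 44.8, 54.0, 42.3 and 63.0 CPM against 17.9, 13.1, 18.2, 3.40 and 11.3 CPM (log2 fold change 1.97, SE 0.35, adjusted p = 4.92e-05). Snx7 was at 10.2, 11.4, 10.04, 1.76 and 9.32 CPM against 83.02, 80.0, 110.5, 72.6 and 76.5 CPM (log2 fold change -3.29, SE 0.34, adjusted p = 9.38e-09), and Chmp2a, the most abundant not called, had 588 ± 52.8 against 546 ± 108 CPM (log2 fold change 0.11, SE 0.17, adjusted p = 0.665). Lysosomal enzymes had 23 of 63 called higher and 7 lower. Cathepsin F (Ctsf) had 49.7 ± 13.2 against 1.94 ± 2.42 CPM (log2 fold change 4.63, SE 0.53, adjusted p = 4.72e-08) and cathepsin L (Ctsl) 58.5 ± 5.75 against 11.8 ± 4.64 CPM (log2 fold change 2.37, SE 0.33, adjusted p = 1.28e-06), whereas cathepsin C (Ctsc), an activator of immune proteases, had 1.46 ± 1.77 against 30.2 ± 5.83 CPM (log2 fold change -4.34, SE 0.62, adjusted p = 2.16e-06).

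Enzymes that start and extend the O-linked sugars of mucins had 12 of 33 called lower and 6 higher, with a median of -0.48 that was 0.07 with total counts alone. B4galnt2, which makes the Sda sugar of the gut, was at 8.83, 10.7, 17.7, 8.23 and 8.77 CPM against 55.5, 56.4, 74.1, 65.8 and 45.9 CPM (log2 fold change -2.45, SE 0.32, adjusted p = 6.32e-07). Galnt13, an isoform known from neurons, was at 20.7, 12.7, 5.26, 15.3 and 13.7 CPM against 0, 0, 0, 0 and 0.566 CPM (log2 fold change 6.10, SE 0.94, adjusted p = 7.76e-06). The isoforms thus parted, with Galnt7 at 41.9 ± 7.27 against 113 ± 30.99 CPM and Galnt4 at 56.9 ± 9.97 against 22.3 ± 13.02 CPM.

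In amine metabolism 12 of 35 genes were called higher and 8 lower. The share higher, 34.3%, was above the 21.5% of all genes, and the share lower, 22.9%, was near their 21.4%. Tph1, the rate-limiting enzyme of serotonin synthesis in the gut, was at 278, 363, 331, 389 and 546 CPM against 35.98, 42.6, 15.9, 21.6 and 16.7 CPM (log2 fold change 3.82, SE 0.27, adjusted p = 4.70e-12). Gch1 and Qdpr, which make and recycle the cofactor of that enzyme, had 167 ± 39.98 against 16.9 ± 8.58 CPM and 369 ± 61.5 against 172 ± 62.7 CPM. Pts and Spr, which act between them in the same cofactor pathway, were called lower, with log2 fold changes of -1.20 and -1.02. Maoa, which breaks down serotonin, was at 6.11, 8.02, 8.13, 29.98 and 13.4 CPM against 218, 189.8, 154, 119 and 175 CPM (log2 fold change -3.73, SE 0.34, adjusted p = 1.91e-09). Aoc1, which degrades histamine, had 2.75 ± 2.93 against 65.0 ± 22.1 CPM (log2 fold change -4.48, SE 0.48, adjusted p = 1.62e-08).

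Carbonic anhydrases had the lowest median of the metabolic families (-2.42), with 5 of 9 called lower and 1 higher. Car12 was at 0, 0, 0, 0 and 0.548 CPM against 15.1, 16, 9.99, 22.7 and 25.5 CPM (log2 fold change -6.43, SE 0.85, adjusted p = 6.34e-07). The member called higher was Car8, which lacks enzyme activity, with 51.3 ± 19.7 against 25.5 ± 7.96 CPM (log2 fold change 0.98, SE 0.32, adjusted p = 0.0197). Glutathione and antioxidant enzymes, the metabolic family with most tested members, had 36 of 63 called lower and 8 higher (median -1.03). Mgst1, a microsomal glutathione transferase, was at 8.49, 6.01, 8.13, 9.41 and 17.8 CPM against 603, 627, 779.9, 521 and 581 CPM (log2 fold change -5.90, SE 0.26, adjusted p = 1.14e-16). Gpx3, a secreted glutathione peroxidase, was at 304, 317, 215, 268 and 428 CPM against 35.04, 22.2, 11.2, 9.08 and 32.9 CPM (log2 fold change 3.72, SE 0.30, adjusted p = 5.57e-10), whereas the cellular forms Gpx1 (304 ± 76.2 against 2618 ± 593 CPM) and Gpx2 (95.2 ± 17.3 against 514 ± 83.7 CPM) were lower. Gclm, a subunit of the enzyme that limits glutathione synthesis, had 253 ± 38.1 against 76.4 ± 21.9 CPM (log2 fold change 1.71, SE 0.22, adjusted p = 3.04e-07). Prdx5, the most abundant not called, had 369 ± 33.8 against 432 ± 62.0 CPM (log2 fold change -0.23, SE 0.16, adjusted p = 0.294).

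Tricarboxylic acid cycle genes had 22 of 30 called lower and 1 higher, and the one called higher, Pdk3 (59.4 ± 13.8 against 18.7 ± 4.75 CPM), encodes a kinase that inhibits pyruvate dehydrogenase. Glycolytic genes moved both ways. Hk2, a hexokinase, had 241 ± 35.5 against 74.6 ± 8.14 CPM (log2 fold change 1.69, SE 0.19, adjusted p = 4.18e-08), and Aldoc, the brain aldolase, 32.2 ± 15.3 against 5.71 ± 2.11 CPM (log2 fold change 2.50, SE 0.45, adjusted p = 5.79e-05). Ldha, which makes lactate, had 56.8 ± 26.4 against 170.5 ± 50.7 CPM (log2 fold change -1.58, SE 0.27, adjusted p = 2.59e-05). In all 8 of 24 glycolytic genes were called higher and 5 lower. The share higher, 33.3%, was above the 21.5% of all genes, and the share lower, 20.8%, was near their 21.4%.

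Proteasome subunits had 33 of 49 members called lower and 0 higher, with a median of -0.67 that shrank to -0.14 with total counts alone. Psme2, a subunit of the activator induced by interferon, was at 236.4, 209.8, 264, 213 and 271 CPM against 534, 527, 466, 348 and 579 CPM (log2 fold change -1.04, SE 0.17, adjusted p = 2.61e-05). Heat shock proteins and co-chaperones, with most tested members in that category, had 16 of 88 called higher and 22 lower. These shares, 18.2% and 25%, were near the 21.5% and 21.4% of all genes. The median was -0.21, and 0.37 with total counts alone. Hspe1, the mitochondrial chaperonin lid, was at 76.8, 62.8, 61.2, 62.9 and 112 CPM against 485, 569, 551, 431 and 745 CPM (log2 fold change -2.88, SE 0.21, adjusted p = 7.58e-12), and its partner Hspd1 had 41 ± 11.8 against 139 ± 21.4 CPM. Dnajc12, a co-chaperone of the aromatic amino acid hydroxylases, was at 184, 96.2, 162, 144 and 89.6 CPM against 14.3, 13.1, 4.70, 1.13 and 3.40 CPM (log2 fold change 4.05, SE 0.41, adjusted p = 4.69e-08). Hsp90ab1, the most abundant not called, had 1208 ± 127 against 1422 ± 205 CPM (log2 fold change -0.23, SE 0.15, adjusted p = 0.250).

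Complement and coagulation genes, which in the body come mostly from the liver, had 12 of 32 called higher and 7 lower (median 1.30). The share higher, 37.5%, was above the 21.5% of all genes, and the share lower, 21.9%, was near their 21.4%. The list also caught by symbol C1qbp, a mitochondrial matrix protein at 30.9, 14.03, 22.5, 18.2 and 18.9 CPM against 222, 192, 172, 132 and 309 CPM (log2 fold change -3.28, SE 0.26, adjusted p = 5.28e-11), and the C1q-related secreted protein C1qtnf4 at 61.8, 56.1, 53.5, 52.3 and 72.9 CPM against 13.9, 14.2, 9.40, 11.3 and 7.93 CPM (log2 fold change 2.38, SE 0.31, adjusted p = 5.16e-07). Of the clotting factors proper, prothrombin (F2) was at 19.7, 18.0, 16.7, 21.2 and 21.9 CPM against 1.65, 0.364, 0, 0 and 1.13 CPM (log2 fold change 4.51, SE 0.67, adjusted p = 4.46e-06) and factor V (F5) at 34 ± 5.11 against 2.48 ± 2.65 CPM (log2 fold change 3.58, SE 0.53, adjusted p = 4.49e-06). Both separated all 10 libraries. Serpins and protease inhibitors had 16 of 35 tested members called higher and 12 lower. Of those called higher, Serpina1c, an alpha-1-antitrypsin gene with near-identical neighbours, had 201 ± 27.01 against 3.54 ± 2.74 CPM, and Serpinf2, the plasmin inhibitor, 44.2 ± 11.7 against 3.47 ± 2.28 CPM.

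In innate immunity, IRF, STAT and NF-kappaB factors and their regulators had 6 of 46 called higher and 3 lower, both shares below those of all genes. Jak2, a kinase of cytokine and hormone receptors, was at 22.1, 16.03, 32.5, 34.7 and 23.3 CPM against 8.23, 7.27, 1.18, 1.13 and 6.23 CPM (log2 fold change 2.29, SE 0.50, adjusted p = 7.11e-04). Relb was at 2.04, 6.01, 4.30, 7.05 and 2.47 CPM against 22.6, 28.4, 11.2, 9.08 and 22.7 CPM (log2 fold change -2.16, SE 0.54, adjusted p = 0.00261), and Jak1, the most abundant not called, had 98.5 ± 16.1 against 89.01 ± 23.97 CPM (log2 fold change 0.14, SE 0.22, adjusted p = 0.678). Toll-like and NOD-like receptors and related sensors had 5 of 32 called higher and 7 lower, with a median of -0.53 that was close to 0 with total counts alone. The share higher, 15.6%, was below the 21.5% of all genes, and the share lower, 21.9%, was near their 21.4%. Clec2h, a lectin-like gene of the gut, was at 0, 0, 2.39, 0.588 and 1.37 CPM against 22.8, 22.9, 58.2, 28.4 and 36.5 CPM (log2 fold change -5.13, SE 0.63, adjusted p = 1.62e-07). Nlrx1, a NOD-like protein of mitochondria, was at 4.08, 10.02, 4.78, 15.3 and 9.87 CPM against 3.29, 0, 0, 0 and 0.283 CPM (log2 fold change 3.23, SE 0.96, adjusted p = 0.0103). The flagellin receptor Tlr5 had 4.87 ± 5.65 against 0.0566 ± 0.127 CPM (log2 fold change 5.34, SE 1.39, adjusted p = 0.00355), and Nlrp6, an inflammasome sensor of goblet cells, 6.23 ± 3.95 against 65.8 ± 12.4 CPM (log2 fold change -3.34, SE 0.43, adjusted p = 3.96e-07).

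Libraries of the same group were more alike among Ret-EGFP+ than among non-EGFP cells. Over the 1590 genes with a mean of at least 50 CPM in both groups, the median SD of log2(CPM + 1) was 0.258 among Ret-EGFP+ and 0.342 among non-EGFP libraries, a description without a test. The 5 genes with the largest SD in each group, among those with a group mean of at least 50 CPM, are given next, among them Gip, described above, and Sst, which was in both sets. Sst, the somatostatin of D cells, was at 214, 1769.7, 7.65, 10.6 and 863 CPM in Ret-EGFP+ replicates 1 to 5 and at 11.5, 1034, 7.64, 400.5 and 1006 CPM in non-EGFP replicates 1 to 5 (log2 fold change 0.22, SE 1.64, adjusted p = 0.939). It ran from near 0 to over 1000 CPM within each group, and the groups overlapped fully. Gal, galanin, was at 301, 99.5, 70.8, 31.7 and 137 CPM against 0.470, 0.727, 1.18, 1.13 and 1.98 CPM (log2 fold change 6.84, SE 0.66, adjusted p = 7.62e-07), variable but without overlap. The predicted gene Gm32585 was at 59.4, 54.8, 10.04, 31.2 and 192 CPM against 1.41, 0.364, 0.588, 0 and 4.53 CPM (log2 fold change 5.32, SE 0.93, adjusted p = 0.00105). Actn1, alpha-actinin, was at 1338, 838, 153, 691 and 1202 CPM against 383, 173, 701, 321 and 339 CPM (log2 fold change 1.14, SE 0.57, adjusted p = 0.162), overlapping.

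Among non-EGFP libraries the most variable genes were largely present in some and nearly absent in others. Iglc1, an immunoglobulin light chain gene of plasma cells, was at 794, 0, 0.588, 3.40 and 0 CPM in non-EGFP replicates 1 to 5, so a single library held nearly all of it and the others overlapped the Ret-EGFP+ libraries, against 1.02, 0.668, 0.956, 1.18 and 0 CPM in Ret-EGFP+ ones (log2 fold change -7.78, SE 2.86, adjusted p = 0.0682). Without non-EGFP replicate 1 its log2 fold change was -0.02 and its adjusted p 0.998. Notch2, a receptor of Notch ligands, was at 115, 3.64, 0, 78.3 and 76.2 CPM against 0, 0, 0, 0 and 0.822 CPM (log2 fold change -7.55, SE 1.73, adjusted p = 0.00944), with overlap through non-EGFP replicate 3, and without the plate 4 pair the adjusted p was 0.166. Rpgrip1, known from the cilium of photoreceptors, was at 203, 1.82, 7.05, 55.6 and 202 CPM against 0.340, 0.668, 4.78, 0.588 and 3.56 CPM (log2 fold change -5.46, SE 1.43, adjusted p = 0.0191), with overlap through non-EGFP replicate 2. Ttyh2, a chloride channel relative, was at 125, 1.82, 4.70, 189 and 75.6 CPM against 26.2, 16.03, 1.43, 36.5 and 23.8 CPM (log2 fold change -1.90, SE 1.16, adjusted p = 0.252), overlapping. For Notch2, Rpgrip1 and Ttyh2 the non-EGFP replicates 1, 4 and 5 were high and replicates 2 and 3 low.

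At the other end, 5 abundant genes were nearest to no difference. Eloc, elongin C of ubiquitin ligases, was at 224, 228, 225, 215 and 223 CPM against 229, 241, 233, 167 and 238 CPM (log2 fold change 0.00, SE 0.17, adjusted p = 0.995), with a 95% interval of the log2 fold change from -0.34 to 0.34. For Cebpg, a stress-response factor, the log2 fold change was 0.00 with an interval from -0.42 to 0.43. For Hsbp1, a regulator of the heat shock factor, it was -0.0034 (from -0.32 to 0.32), for the actin-nucleating subunit Arpc5l 0.0070 (from -0.35 to 0.36) and for the ubiquitin-conjugating enzyme Ube2b -0.0075 (from -0.38 to 0.37). The groups overlapped for each of the 5. Their place at 0 is set by TMM scaling, and with total counts alone the log2 fold changes of these 5 were 0.55 to 0.57.

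**Figure D5:**
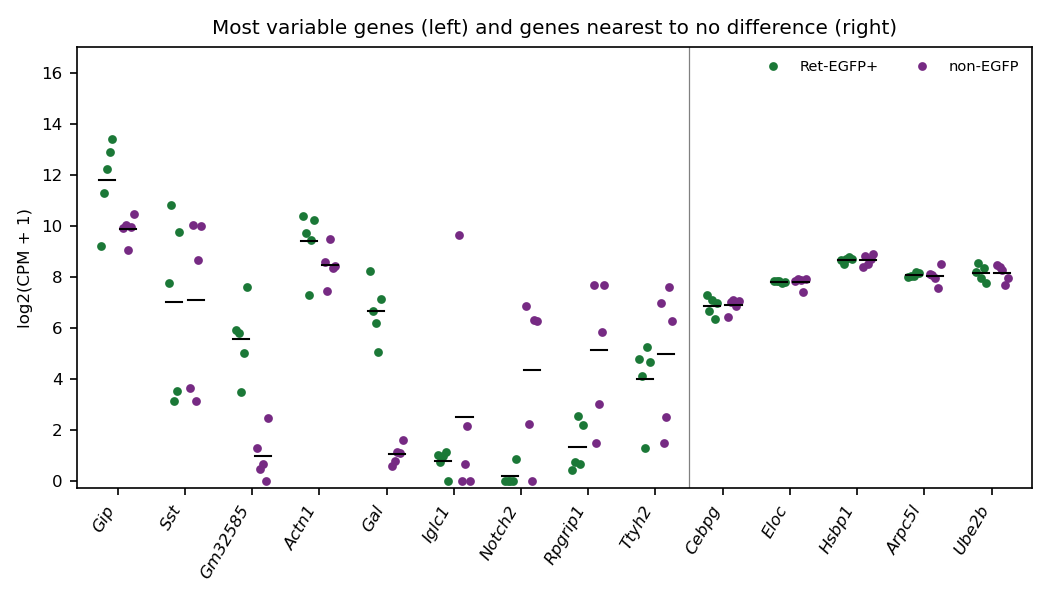
Level as log2(CPM + 1) of the genes that varied most within a group (left, 9 genes) and of the 5 abundant genes nearest to no difference (right), in 5 Ret-EGFP+ (green) and 5 non-EGFP (purple) libraries, with black bars for means. Iglc1 is high in 1 non-EGFP library, and Notch2, Rpgrip1 and Ttyh2 are high in 3.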

How the data were processed

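The authors aligned reads to GRCm38 with STAR 2.7.8a and used BRB-seqTools to count each Ensembl gene; the deposited values are raw counts, with no normalization. The deposited sample sheet gives the GFP status, plate and pool of each library as text (no unit). GEO's labels name only the pools, so groups come from that sheet.

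Counts of 31053 identifiers (30934 with a symbol) were tested with edgeR 4.0.16 in R 4.3.3 (TMM, quasi-likelihood F test with robust moderation, GFP alone in the design). Genes under 5 counts over all libraries, or whose normalized counts averaged below 1, were left out, and the rest were called at an adjusted p under 0.1 (Benjamini-Hochberg). The SE is the log2 fold change over the root of F. Fold changes against a group without counts use a floor of 3 counts over that group. Robust moderation was adopted after a first fit without it, which is kept as an alternative chosen after seeing the data. Alternatives were DESeq2 1.42.0, its size factors, total counts alone, other filters, an adjusted p under 0.05, genes above the identifier limit left out, pool or plate as covariates, and each library left out. Class shares used exact permutation tests. The edgeR step was tested on simulated data, in which false calls were more frequent than the threshold implies.

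Named genes are, in the families of highest median, lowest median and most tested members of each of 12 categories (at least 5 tested members), the called member of smallest p in each direction (mean of at least 10 counts, no overlap), the most abundant member not called in the family with most, the 10 largest gains and losses in CPM, the 5 genes nearest to no difference, the 5 most variable of each group (mean of at least 50 CPM), and the markers. All other genes in the text were picked with their values in view. The members and lists were chosen with earlier results of these data known. Intervals cover the spread between libraries, which may be technical. Organoid libraries were not analysed here.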

Additional observations from a re-analysis of the deposited data

Results flagged for a closer look

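Of 195 groups of 5 libraries with a mean of at least 10 counts, 16 had a library whose gap to the nearest other exceeded 0.71 of the group's range, Dixon's 95% critical value. For normally distributed values chance alone gives about 1 in 20. Some of these genes, Gm32585 and Iglc1 among them, were picked for their spread, so that rate does not hold for this set. Ret-EGFP+ replicate 5, the plate 4 library, held 4 of them. It was highest for Sct (45853 CPM, others 22795 to 26032), Myl7 (7508 CPM, others 3435 to 3899), Gm32585 (192 CPM, others 10.0 to 59.4) and Mgst1 (17.8 CPM, others 6.01 to 9.41). All 4 genes remained called, in the same direction, when that library was left out.

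Among the other Ret-EGFP+ libraries, replicate 1 was lowest for Hmgn3 (447 CPM, others 517 to 533). Replicate 2 was lowest for Ift20 (249 CPM, others 341 to 364) and highest for Evpl (36.1 CPM, others 3.82 to 11.2). Replicate 3 was highest for Bmp1 (34.4 CPM, others 15.1 to 17.05) and B4galnt2 (17.7 CPM, others 8.23 to 10.7). Replicate 4 was lowest for Ttr (872 CPM, others 1096 to 1147) and Snx7 (1.76 CPM, others 9.32 to 11.4).

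Among non-EGFP libraries, replicate 1 was highest for Iglc1 (794 CPM, others 0 to 3.40) and replicate 3 for Snx7 (110.5 CPM, others 72.6 to 83.02). Replicate 4, the library with the fewest counts, was highest for Kif20b (96.4 CPM, others 18.4 to 35.5) and lowest for Eloc (167 CPM, others 229 to 241). Replicate 5 was highest for Mrpl12 (528 CPM, others 249.8 to 318).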

How the results depend on the processing

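With total counts alone in place of TMM factors, 4780 genes were called higher and 1824 lower, and filterByExpr, which tested 8830 genes, called 1940 higher. Other alternatives kept both counts within 1.5 times of 2938 and 2919; plain variance moderation, chosen after seeing the data, gave 2938 and 2920. The higher share of calls moved from 50.2% to 72.4% with total counts alone and to 57.7% without genes above the identifier limit, where the median log2 fold change was 0.28. Leaving out each library gave 2499 to 3015 genes higher and 2449 to 2794 lower.

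Differences in class shares, Ret-EGFP+ minus non-EGFP in percentage points, ranged with a library left out from 30.6 to 31.9 for hormone and granule genes, -35.8 to -30.5 for Paneth and goblet effectors, -1.49 to -1.06 for ribosomal proteins, -0.841 to -0.705 for mitochondrial DNA, -0.177 to -0.123 for histones, -3.26 to -2.62 for predicted genes and -4.68 to 0.222 for the 10 most abundant genes, where the difference turned positive without non-EGFP replicate 4 (exact permutation adjusted p = 0.905). Without genes above the identifier limit the difference shrank to 5.23 for hormone and granule genes and to -9.70 for Paneth and goblet effectors, since the most abundant of both are left out; the difference in predicted genes was 0.433, since defensins left the class, and that of the 10 most abundant genes -3.58 (exact permutation adjusted p = 0.0238).

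Of 85 named genes that were called, 81 kept call and direction in every one of the 21 alternatives that gave them a value (genes above the identifier limit or under a stricter filter had none in some); Afdn, Map1lc3b, Iglc1 and Notch2 did not in at least 1. With total counts alone the log2 fold changes of Map1lc3b (0.037), Mrpl33 (0.23), Crb3 (0.31), Prdx5 (0.32), Hsp90ab1 (0.33), Hist1h2bc (0.50), Ift20 (0.51), Hsbp1 (0.55) and Ube2b (0.55) turned positive. Of 20 named genes not called, 11 were called with the same sign in some alternative. A further group, Hist1h2bc, Ift20, Hsbp1 and Ube2b, was called with the opposite sign in 1 alternative each. Of 66 family counts 16 stayed within 1.5 times in every alternative, and of the 21 counts of at least 10 genes, 5 did. No paired analysis was possible because the mouse of each library is not in the sheet and the replicate numbers are only names; plate, which the sheet gives, entered as a covariate (2567 higher, 2718 lower). Depth limits rare genes, such as the Hox genes and collagens.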

Other observations

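Enzymes of arachidonate and eicosanoid metabolism, which make leukotrienes and prostaglandins, had 14 of 24 tested members called lower in Ret-EGFP+ cells and 5 higher. Alox5, the first enzyme of leukotriene synthesis, had no count in any Ret-EGFP+ library against a mean of 12.4 CPM, at least 39.9-fold lower by a floor of 3 counts over the group. Its activator Alox5ap had 2.10 ± 2.24 against 133.6 ± 43.01 CPM (log2 fold change -5.87, SE 0.53, adjusted p = 4.47e-08) and Ltc4s, which makes leukotriene C4, 5.33 ± 4.70 against 209 ± 75.2 CPM (log2 fold change -5.38, SE 0.50, adjusted p = 5.99e-07). These genes are also expressed in tuft and mast cells, and tuft markers summed to 3.35 to 10.4 CPM in Ret-EGFP+ against 337 to 1074 CPM in non-EGFP libraries. The part of those cells in the difference was not tested. Cyp2j5, a cytochrome that oxidises arachidonate, went the other way, with 56.1 ± 16.9 against 0.730 ± 0.817 CPM (log2 fold change 6.11, SE 0.53, adjusted p = 2.66e-10).

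Immediate early genes, which cells switch on within minutes of a stimulus, had 7 of 22 called higher and 1 lower. Nr4a2, a nuclear receptor of that group, was at 68.6, 52.8, 57.8, 77.0 and 51.3 CPM in Ret-EGFP+ and 6.12, 2.18, 20.6, 4.54 and 4.25 CPM in non-EGFP libraries (log2 fold change 3.07, SE 0.43, adjusted p = 1.53e-06). Klf4, a factor of differentiated epithelium, was the member called lower, with 29 ± 19.7 against 85.8 ± 36.1 CPM (log2 fold change -1.56, SE 0.40, adjusted p = 0.00458) and overlapping groups. Tm4sf4, a tetraspanin-like membrane protein, was at 2802, 2766, 3486, 2572 and 2967 CPM against 349.7, 375, 419, 228 and 394 CPM (log2 fold change 3.04, SE 0.18, adjusted p = 6.41e-14), without overlap.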
